A study of Rattus norvegicus with 45 samples.

Results

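The lung arm of a study of empagliflozin in hypertensive rats comprised 6 RNA-seq libraries, 3 from empagliflozin rats and 3 from vehicle rats, out of 45 libraries in the series. They were selected as the libraries whose labels give lung as the tissue, and the groups were read from the library titles. The animals were male spontaneously hypertensive rats, an inbred strain in which blood pressure climbs with age in the absence of any added agent, aged 8 weeks and weighing 220 to 260 g. Empagliflozin rats were gavaged with 10 mg/kg of the drug each day for 30 days. Vehicle rats were gavaged with saline over the same period. Rats of both groups thus carried the hypertensive background, and no normotensive strain was analysed here. RNA was extracted from lung tissue with no sorting named in the labels, so that each library is a mixture of lung cell types. The comparison asks which lung transcripts differ after a month of the drug.

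Empagliflozin inhibits SGLT2, the sodium-glucose cotransporter encoded by Slc5a2 that recovers filtered glucose in the kidney tubule. Lung tissue is built from alveolar type 1 and type 2 cells, airway secretory and ciliated cells, a dense capillary endothelium, resident and recruited leukocytes, and an outer layer of mesothelial cells, the pleura. In such a library a transcript can differ because more or fewer cells of a type were sampled or because each cell held more or less of it, and fewer cells of a type and less RNA per cell cannot be told apart.

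Expression was read as FPKM, a fragment count divided by transcript length and by the number of mapped fragments. Of 20794 genes in the deposited tables, 14161 averaged 1 FPKM or more in either group and were tested. The read totals are unknown, and FPKM summed over genes ran from 564979 to 627069 per library. Defining markers of lung were high in all 6 libraries. Surfactant protein C, Sftpc, measured 11855 to 19686 FPKM in empagliflozin lungs and 15480 to 21688 FPKM in vehicle lungs, and at most 33.1 FPKM in any library of another tissue. Ager, the type 1 cell receptor, measured 1253 to 2037 FPKM in empagliflozin lungs and 1084 to 1967 FPKM in vehicle lungs. The empagliflozin and vehicle libraries were deposited in separate tables, so that the group and the table cannot be told apart in any value given here.

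Vehicle lung 3 stood apart from its group. It correlated most highly with empagliflozin lung 3 (r = 0.985 across genes), and vehicle lungs 1 and 2 most highly with each other (r = 0.983). Empagliflozin lung 3 in turn correlated most highly with vehicle lung 3, above empagliflozin lungs 1 and 2 (r = 0.979 and 0.978). These values do not tell which of the libraries numbered 3 is atypical. Results are therefore given with and without vehicle lung 3. That library was picked for its likeness to an empagliflozin lung, so leaving it out tends to widen differences by selection. Values without it are thus no separate support for a difference. The same-numbered libraries of the groups also deviated together from their group means, although the groups are different rats.

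With all 6 libraries, 0 genes passed limma at an adjusted p of 0.05 (0% of genes tested), and the lowest adjusted p was 0.198. At an unadjusted p under 0.05 there were 1079 genes (7.62%), of which 650 were higher (4.59%) and 429 lower (3.03%) in empagliflozin lungs. The higher genes made up 60.2% of these, but 47.7% after quantile normalization and 47.5% after median-ratio scaling. The groups did not overlap for 1820 genes (12.9%), 1135 of them higher (8.01%) and 685 lower (4.84%). Without vehicle lung 3, 51 genes passed (0.359%), 30 higher (0.211%) and 21 lower (0.148%), and 2698 were under the unadjusted threshold (9.47% of genes higher and 9.53% lower). When both libraries numbered 3 were left out, 0 genes passed and 2554 were under the unadjusted threshold (10.3% higher and 7.67% lower). That count was 1768 (7.51% higher and 4.97% lower) when replicate numbers entered as blocks. It was 892 without empagliflozin lung 1, 578 without empagliflozin lung 2 and 1167 without empagliflozin lung 3. Without vehicle lung 1 it was 676, and without vehicle lung 2 it was 705. No gene is called changed on all 6 libraries, and higher and lower describe values that did not pass the adjusted threshold. The p-values measure the spread between these rats alone.

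The genes with the lowest p came from several unrelated cell types. Steap4 (gene 499991) encodes a metalloreductase of iron and copper that is known from fat and inflamed tissue. It measured 20.3, 25.6 and 20.5 FPKM in empagliflozin lungs 1, 2 and 3, against 6.38, 6.91 and 8.85 FPKM in vehicle lungs 1, 2 and 3. No values overlapped, and the highest vehicle value lay well under the lowest empagliflozin value. The difference was 1.47 ± 0.15 on the log2(FPKM + 1) scale (SE, limma adjusted p = 0.198), a scale that understates differences of low genes. It was 1.59 with an adjusted p of 0.0330 without vehicle lung 3. Over 15 alternatives the adjusted p ran from 0.0307, in a fit of all 7 tissues, to 0.979.

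Mcpt2 (gene 29266) encodes a chymase of mucosal mast cells. It measured 4.15, 4.50 and 4.23 FPKM in empagliflozin lungs against 0.73, 1.16 and 1.19 FPKM in vehicle lungs. The 3 values of each group lay close together and far from those of the other group, with a difference of 1.39 ± 0.14 (adjusted p = 0.198). The adjusted p was 0.0355 without vehicle lung 3, and over 14 alternatives it ran from 3.48e-13, in a fit of all 7 tissues, to 0.979. That fit pools the spread of a gene over all tissues, and Mcpt2 averaged 0.02 FPKM over the 36 other libraries, where little spread is possible. Reads can be shared among the related mast cell proteases, and how the authors assigned them is not stated.

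Msln (gene 60333) encodes mesothelin, a surface protein of the pleural lining. It measured 49.2, 70.5 and 51.2 FPKM in empagliflozin lungs against 13.5, 8.60 and 24.7 FPKM in vehicle lungs. No overlap was seen, and vehicle lung 3 was the highest of its group. The difference was 1.90 ± 0.34 (adjusted p = 0.613), and 2.28 without vehicle lung 3 (adjusted p = 0.0338, range over 15 alternatives 0.0338 to 0.979).

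Other genes among the 10 higher ones with the lowest p were low or of mixed origin. Krt13, a keratin of stratified squamous epithelium, measured 1.45, 1.6 and 1.63 FPKM in empagliflozin lungs against 0.22, 0 and 0.32 FPKM in vehicle lungs. Prph, peripherin, an intermediate filament of peripheral neurons, measured 10.8, 6.80 and 6.77 FPKM in empagliflozin lungs against 0.23, 0.20 and 2.38 FPKM in vehicle lungs. Both genes separated the groups, Krt13 by 1.13 ± 0.17 and Prph by 2.39 ± 0.42 (adjusted p = 0.613 each). Isl1, a LIM homeodomain transcription factor, was listed at 0 in vehicle lungs 1 and 2 and at 0.06 FPKM in vehicle lung 3, and at 0.91, 1.88 and 1.17 FPKM in empagliflozin lungs. Krt13, Prph and Isl1 entered the test only through their empagliflozin mean, as did Fndc1. Lpar3, a receptor for lysophosphatidic acid, measured 25.4, 26.7 and 24.3 FPKM in empagliflozin lungs against 17.9, 16.0 and 15.4 FPKM in vehicle lungs. Fndc1, a fibronectin type III domain protein, Mgat3, the enzyme that adds the bisecting residue to N-glycans, and Calml3, a calmodulin-like protein, completed these 10, with differences of 1.45, 0.88 and 0.84.

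**Figure D1:**
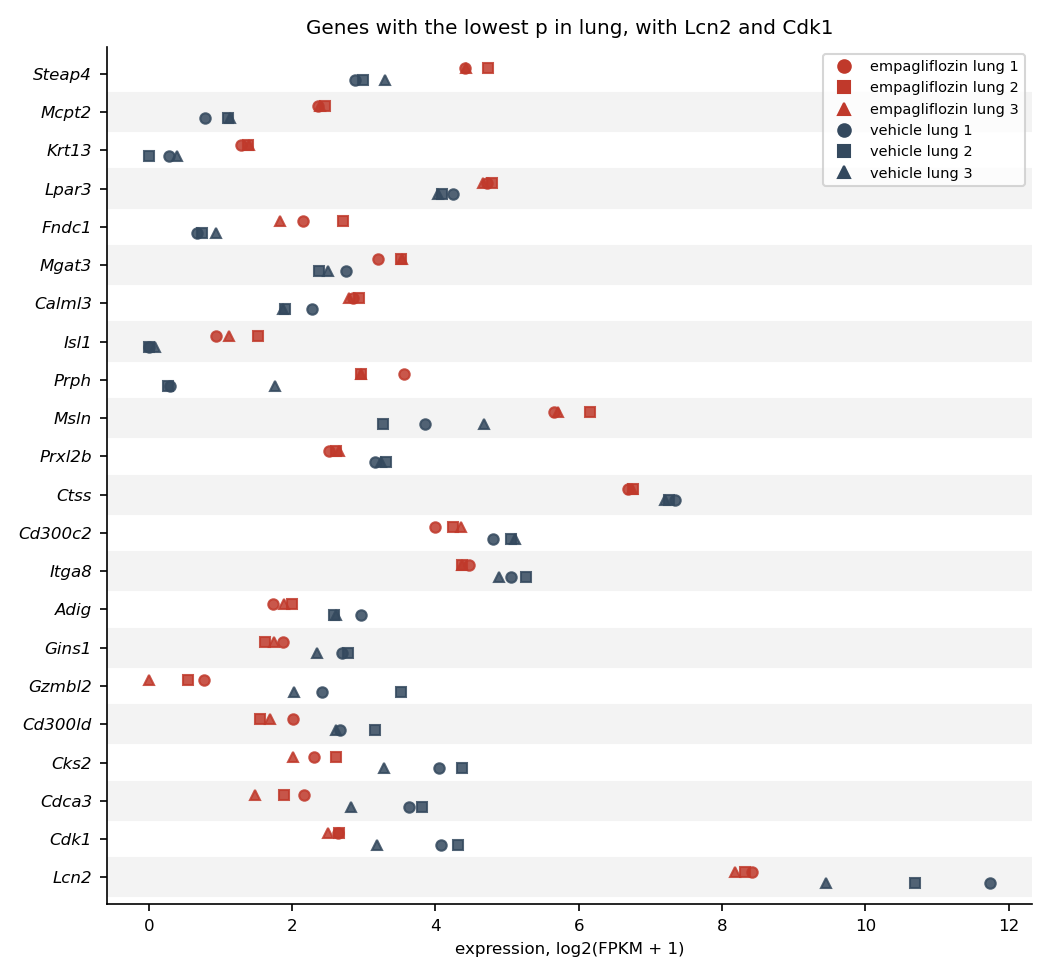
Expression of the 10 higher and 10 lower genes with the lowest p, and of Cdk1 and Lcn2, in each lung library. The horizontal axis is log2(FPKM + 1), and each symbol is 1 library, red for empagliflozin and dark blue for vehicle, with the shape giving the library number. For all 22 genes the red symbols lie to 1 side of the dark blue ones. Vehicle lung 3 (dark blue triangle) is the vehicle library nearest to the red symbols for all but Prxl2b, Lpar3, Cd300c2, Mgat3, Calml3 and Adig.

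Lcn2 (gene 170496) was lower in empagliflozin lungs. It encodes lipocalin 2, a protein that binds bacterial siderophores and is made by neutrophils and stressed epithelium. It measured 341, 318 and 289 FPKM in empagliflozin lungs against 3415, 1652 and 699 FPKM in vehicle lungs. The empagliflozin values were tightly grouped and the vehicle values spread over a wide range above them. Means were 316 ± 26.3 FPKM in empagliflozin lungs and 1922 ± 1378 FPKM in vehicle lungs (SD, n = 3 each). The difference was -2.32 ± 0.52 (adjusted p = 0.616), and -2.91 without vehicle lung 3 (adjusted p = 0.0338, range over 15 alternatives 0.000965 to 0.979). The lowest of that range came from the fit of all 7 tissues, which pools the spread of a gene over tissues. In every group of the other tissues the Lcn2 mean was between 0.883 and 22.2 FPKM.

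The rest of the neutrophil list did not share the size of that difference. Of 24 markers 16 were tested, 2 of them only through their vehicle mean, Il1r2 among them. At an unadjusted p under 0.05, 3 (18.8%, against 3.03% of all genes) were lower: Lcn2, the chemokine receptor Cxcr2 (difference -0.73) and the decoy receptor Il1r2 (-0.70). The count was 1 without empagliflozin lung 1, 1 without empagliflozin lung 2, 2 without vehicle lung 2 (or with the replicate block) and 5 without empagliflozin lung 3. With the replicate block 4.97% of all genes were lower. S100a8, a calprotectin subunit of neutrophils, measured 28.6, 29.8 and 66.3 FPKM in empagliflozin lungs against 31.7, 51.8 and 46.6 FPKM in vehicle lungs, and the groups overlapped.

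Of the 12 tested genes of the list of eosinophils and type 2 inflammation, 5 were higher and 7 lower, with a median difference of -0.02. Of the 12, 1 entered the test only through its empagliflozin mean. Retnla, a resistin-like protein secreted in type 2 inflammation, measured 337, 274 and 331 FPKM in empagliflozin lungs against 2162, 910 and 661 FPKM in vehicle lungs. Arg1, arginase 1, measured 7.98, 8.30 and 11.2 FPKM in empagliflozin lungs against 29.3, 36.7 and 15.7 FPKM in vehicle lungs. Chi3l1, a chitinase-like glycoprotein from the list of acute inflammation, measured 241, 198 and 227 FPKM in empagliflozin lungs against 756, 360 and 308 FPKM in vehicle lungs. The groups did not overlap for any of these 3 genes, with differences of -1.80 ± 0.41 for Retnla, -1.41 ± 0.30 for Arg1 and -0.98 ± 0.32 for Chi3l1. Of the list of eosinophils and type 2 inflammation, Retnla and Arg1 were the 2 genes under an unadjusted p of 0.05 (16.7%, against 3.03% of all genes lower). There were 4 lower ones without vehicle lung 3, where 9.53% of all genes were lower. The eosinophil ribonuclease Rnase3 differed by -0.01.

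Lower genes with small but tight differences included Ctss, cathepsin S, which trims the invariant chain of MHC class II. It measured 102, 108 and 106 FPKM in empagliflozin lungs against 162, 152 and 147 FPKM in vehicle lungs, a difference of -0.54 ± 0.09 (adjusted p = 0.613). Cd300c2 and Cd300ld, related myeloid receptors whose reads may be shared, were lower by differences of -0.79 and -1.06. Gzmbl2, a granzyme B-like protease, measured 0.71, 0.46 and 0 FPKM in empagliflozin lungs against 4.37, 10.5 and 3.06 FPKM in vehicle lungs. Its groups did not overlap, but it entered the test only through its vehicle mean and is near in sequence to other granzymes. Itga8, an integrin chain of mesenchymal cells, Prxl2b, a prostaglandin F synthase, and Adig, adipogenin, differed by -0.66, -0.65 and -0.85. The remaining 3 of the 10 lower genes, Gins1, Cks2 and Cdca3, act in the cell cycle.

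Gene lists were described by how many members were higher or lower, read against all 14161 genes, of which 56.3% were higher, 43.7% lower and the median difference 0.03. Within 52 lists of cell type markers and processes, the mesothelial list had a high median and the cell cycle list a low one. List counts without a single library are to be read against the totals of genes under the unadjusted threshold for that setting, given above. Those totals hold higher and lower genes together unless both shares are printed.

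**Figure D2:**
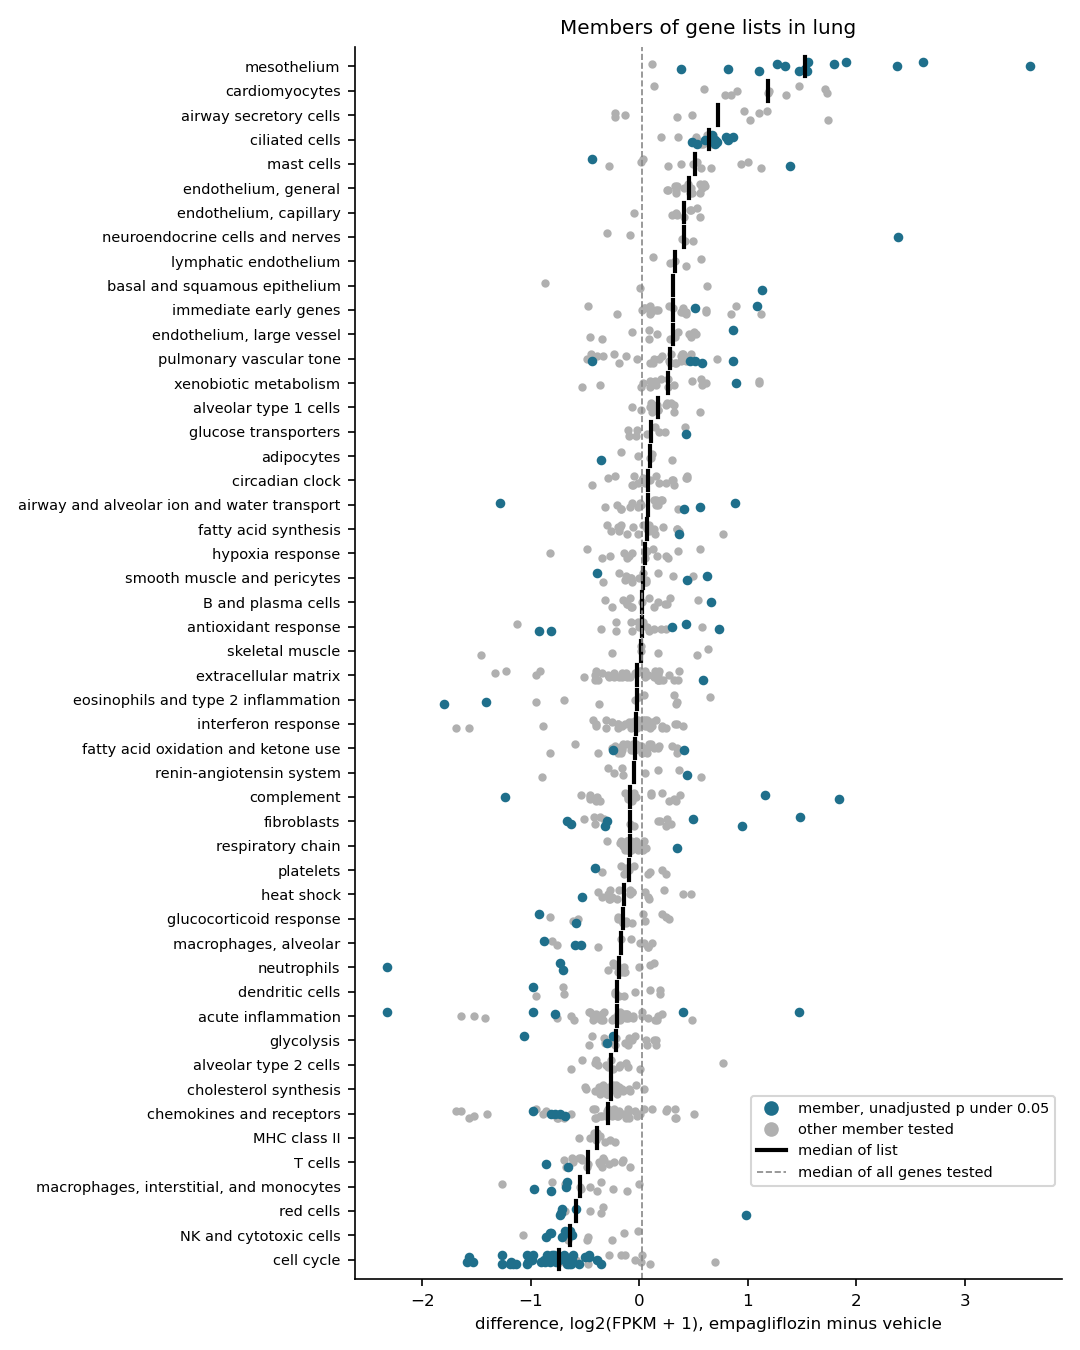
Difference of each list member tested in lung, empagliflozin minus vehicle, on the log2(FPKM + 1) scale, with lists of at least 4 members ordered by their median. Blue points are members at an unadjusted p under 0.05, grey points the others, black bars list medians and the dashed line the median of all genes tested (0.03). Mesothelium (median 1.53) stands at the top and cell cycle (median -0.74) at the bottom. The cardiomyocyte list, second from the top, holds 0 blue points.

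Proliferation genes were lower in empagliflozin lungs. Of 69 cell cycle genes listed, 68 were found and 65 tested. 61 were lower and 4 higher, with a median difference of -0.74. 46 (70.8%) were lower at an unadjusted p under 0.05, against 3.03% of all genes, and 0 were higher. The groups did not overlap for 36 (55.4%), against 4.84% of all genes. Of the 65, 13 entered the test only through their vehicle mean. The mean level of the list was 2.04, 1.97 and 1.77 in empagliflozin lungs 1, 2 and 3, against 2.78, 3.01 and 2.11 in vehicle lungs 1, 2 and 3, in log2(FPKM + 1). Vehicle lung 3 lay nearest to the empagliflozin lungs but above all of them. Without it 60 members were lower at an unadjusted p under 0.05, where 9.53% of all genes were, with a median of -1.01. The count was 24 without empagliflozin lung 3, 21 without vehicle lung 1 and 22 without vehicle lung 2, and the median ran from -1.08 to -0.55 over all alternatives.

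Genes for entry into mitosis were among the most separated. Cdk1 (gene 54237), the kinase that drives mitosis, measured 5.21, 5.29 and 4.69 FPKM in empagliflozin lungs against 15.9, 19.0 and 8.11 FPKM in vehicle lungs. Cks2, a small subunit that binds Cdk1, measured 3.96, 5.14 and 3.02 FPKM in empagliflozin lungs against 15.6, 19.7 and 8.71 FPKM in vehicle lungs. Cdca3, which promotes the destruction of the mitosis inhibitor Wee1, measured 3.50, 2.71 and 1.80 FPKM in empagliflozin lungs against 11.4, 13 and 6.06 FPKM in vehicle lungs. For each of these genes the groups did not overlap and vehicle lung 3 was the lowest of its group. The differences were -1.26 ± 0.28 for Cdk1 (adjusted p = 0.616), -1.59 ± 0.29 for Cks2 and -1.57 ± 0.29 for Cdca3 (adjusted p = 0.613 each). They were -1.60, -1.90 and -1.87 when vehicle lung 3 was left out, with limma adjusted p of 0.0330, 0.0376 and 0.0452. Over the 15 alternatives of each gene the adjusted p ran from 0.033 for Cdk1, 0.00837 for Cks2 and 0.000547 for Cdca3 up to 0.979. For Cks2 and Cdca3 the lowest came from the fit of all 7 tissues, which pools the spread of a gene over tissues.

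Genes of DNA replication were lower as well. Gins1, a subunit of the replicative helicase, measured 2.65, 2.08 and 2.36 FPKM in empagliflozin lungs against 5.49, 5.86 and 4.10 FPKM in vehicle lungs. Rrm2, the small subunit of ribonucleotide reductase, measured 7.36, 5.93 and 4.24 FPKM in empagliflozin lungs against 24.5, 28.4 and 8.88 FPKM in vehicle lungs. Tyms, thymidylate synthase, measured 5.23, 4.23 and 3.74 FPKM in empagliflozin lungs against 6.93, 8.49 and 7.22 FPKM in vehicle lungs. None of these 3 overlapped between groups, and for Rrm2 vehicle lung 3 lay close to the empagliflozin lungs, unlike for Tyms. Pcna, the sliding clamp of replication, and Spc25, a kinetochore subunit, differed by -0.55 and -0.79.

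The promoters of cell cycle genes are shown because most of the list was lower and because many are known to be read by complexes that bind a CHR element and CCAAT boxes. Windows of 250 bases before to 50 bases after the start came from RefSeq on the build GRCr8, whereas the expression files use Rnor_6.0. For 52 of the 65 tested genes 55 windows were matched. The letters TTTGAA on either strand (CHR) were in 28 of them (50.9%), against 18.3% of all 33469 windows and 12.3% of the 12594 windows of genes tested in lung. The letters CCAAT on either strand were in 41 (74.5%), against 37.5% of all windows. Both were in 22 (40.0%), against 7.41% of all windows. The windows of Cdk1, chr20:19265043-19265342 on the plus strand, Cdca3, chr4:159320953-159321252 on the plus strand, and Cks2, chr17:13727470-13727769 on the minus strand, follow 5′ to 3′, with capitals marking these letters, which do not overlap.
Cdk1: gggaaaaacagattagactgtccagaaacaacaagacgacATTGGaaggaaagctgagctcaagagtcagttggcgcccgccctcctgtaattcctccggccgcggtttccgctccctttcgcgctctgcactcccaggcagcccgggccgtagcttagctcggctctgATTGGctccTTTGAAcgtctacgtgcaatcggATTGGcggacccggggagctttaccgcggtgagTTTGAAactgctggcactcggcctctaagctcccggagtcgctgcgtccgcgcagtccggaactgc
Cdca3: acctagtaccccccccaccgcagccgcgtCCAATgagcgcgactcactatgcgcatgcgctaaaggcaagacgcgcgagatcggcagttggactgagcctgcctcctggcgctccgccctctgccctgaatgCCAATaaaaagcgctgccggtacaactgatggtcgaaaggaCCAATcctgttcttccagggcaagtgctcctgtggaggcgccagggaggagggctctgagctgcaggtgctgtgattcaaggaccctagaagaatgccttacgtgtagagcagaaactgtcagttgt
Cks2: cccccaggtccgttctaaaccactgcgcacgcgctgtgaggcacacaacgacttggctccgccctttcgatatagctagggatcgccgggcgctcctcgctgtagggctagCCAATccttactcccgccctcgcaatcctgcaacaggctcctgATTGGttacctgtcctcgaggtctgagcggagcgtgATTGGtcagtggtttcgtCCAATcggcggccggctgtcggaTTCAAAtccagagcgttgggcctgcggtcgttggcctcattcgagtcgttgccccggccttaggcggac
Cdk1 held 2 CHR and 3 CCAAT matches, Cks2 held 1 and 4, and Cdca3 held 0 and 3. A match is a description of the letters only.

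Mesothelial genes were higher in empagliflozin lungs. Of 17 markers 15 were tested, all 15 were higher with a median difference of 1.53, and 14 (93.3%) were higher at an unadjusted p under 0.05, against 4.59% of all genes. Non-overlapping groups were found for 12 (80%), against 8.01% of all genes. Muc16, Wt1 and Bnc1 entered the test only through their empagliflozin mean, and Slurp1 and Itln1 were under the threshold of expression. The mean level of the 17 was 3.87, 4.38 and 4.09 in empagliflozin lungs against 2.21, 2.25 and 3.62 in vehicle lungs, in log2(FPKM + 1). Vehicle lung 3 thus lay close under the empagliflozin lungs and far over the other vehicle lungs.

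The size of this gap differed between markers. Upk3b, a uroplakin of the mesothelial surface, measured 26.4, 45.8 and 36.2 FPKM in empagliflozin lungs against 0.15, 0.11 and 20.1 FPKM in vehicle lungs. Wt1, the Wilms tumour transcription factor of mesothelium, measured 2.46, 4.83 and 3.06 FPKM in empagliflozin lungs against 0.09, 0.16 and 1.71 FPKM in vehicle lungs. Rspo1, a secreted enhancer of Wnt signalling, measured 26.9, 39.8 and 31.6 FPKM in empagliflozin lungs against 7.55, 6.87 and 20.9 FPKM in vehicle lungs. In all 3 genes the groups did not overlap, and vehicle lungs 1 and 2 had almost no Upk3b while vehicle lung 3 had a level near that of empagliflozin lung 1. Upk1b and Gpm6a overlapped, since empagliflozin lung 1 (20.2 and 22.3 FPKM) lay under vehicle lung 3 (21.7 and 23.1 FPKM). Krt7, a keratin that alveolar and airway epithelium also express, differed by 0.12 and was the tested marker not under an unadjusted p of 0.05.

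Without vehicle lung 3 the median of the mesothelial list was 2.01, 14 members were higher at an unadjusted p under 0.05, where 9.47% of all genes were, and 7 passed the adjusted threshold, among them Upk3b with an adjusted p of 0.00859. Leaving out any other library gave counts of 10 to 14 under the unadjusted threshold, and the median ran from 1.26 to 2.01 over all alternatives. Whether the amount of pleura taken with each piece of lung differed was not tested. Col14a1 of the fibroblast list and C4a of the complement list showed a similar order, but those lists were mixed. Of 19 tested fibroblast genes 8 were higher and 11 lower, with a median of -0.08. Of 24 tested complement genes 9 were higher and 15 lower, with a median of -0.08. Col14a1, a fibril-associated collagen, measured 5.89, 6.47 and 4.29 FPKM in empagliflozin lungs against 0.82, 0.61 and 3.24 FPKM in vehicle lungs. C4a, a complement C4 gene whose reads its copy C4b may share, measured 119, 188 and 126 FPKM in empagliflozin lungs against 32.4, 20.8 and 85.6 FPKM in vehicle lungs. Their groups did not overlap, with differences of 1.48 ± 0.37 for Col14a1 and 1.84 ± 0.48 for C4a (adjusted p = 0.616 each).

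**Figure D3:**
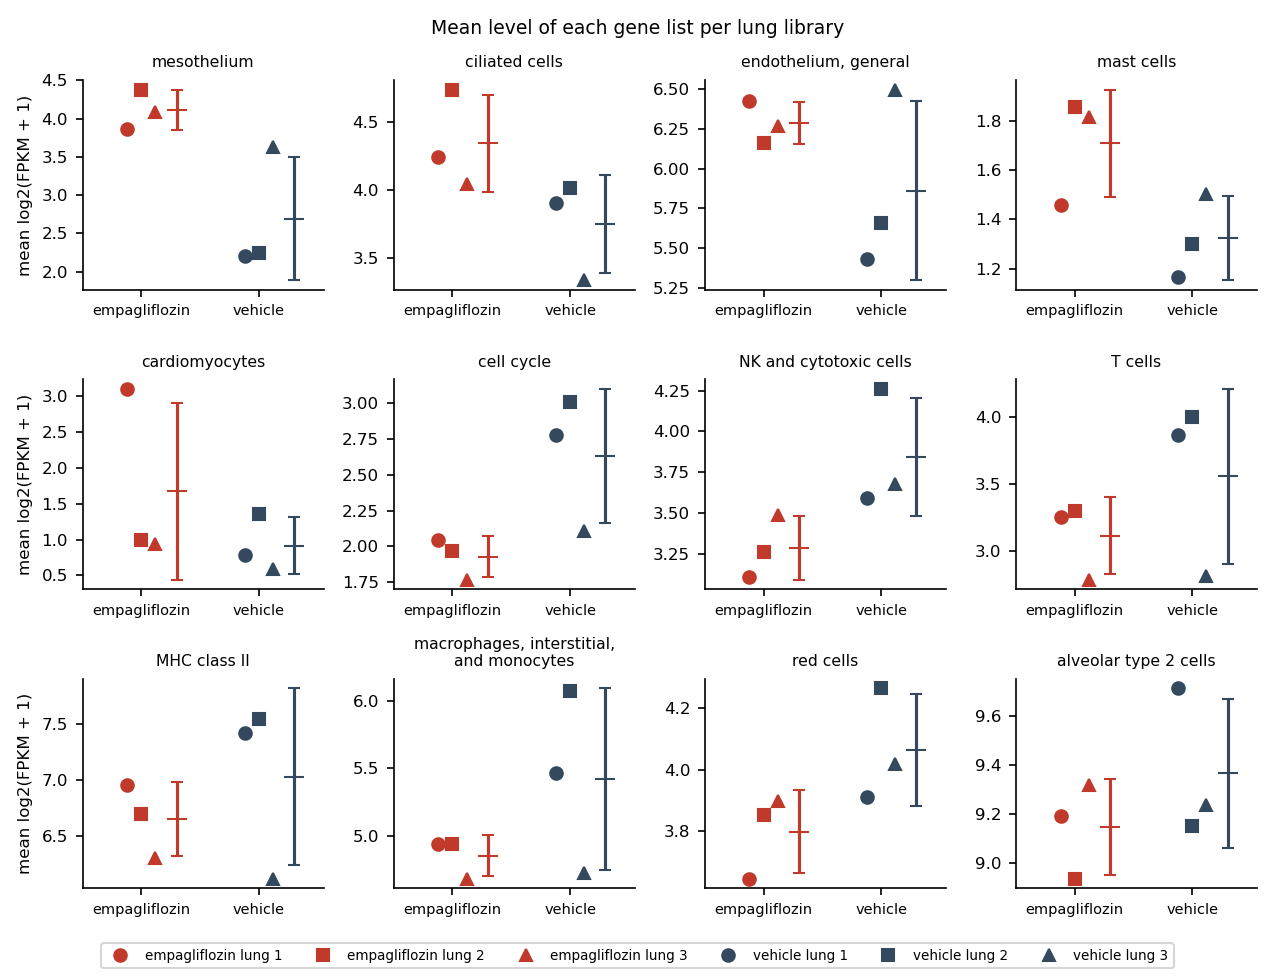
Mean level of 12 gene lists in each lung library, as the mean of log2(FPKM + 1) over the members found, with empagliflozin libraries on the left in red and vehicle libraries on the right in dark blue. Symbols give the library number and the bars beside them the mean ± SD (n = 3). Axes do not start at 0 and differ between panels. In the panels for mesothelium, endothelium, T cells and MHC class II, vehicle lung 3 (triangle) lies nearer to the empagliflozin lungs than the other vehicle lungs do, whereas for ciliated cells it is the lowest of all 6.

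Ciliated cell genes were also higher in empagliflozin lungs, with another order of libraries. Of 25 markers 24 were tested, all 24 were higher with a median of 0.64, and 11 (45.8%) were higher at an unadjusted p under 0.05, against 4.59% of all genes. For 12 (50%) the groups did not overlap, against 8.01% of all genes. With the replicate block the count was 23, where 7.51% of all genes were higher. It was 6 without empagliflozin lung 2, 17 without vehicle lung 2 and 7 without vehicle lung 3, and the median ran from 0.42 to 0.83 over all alternatives. The mean level was 4.24, 4.74 and 4.05 in empagliflozin lungs against 3.90, 4.01 and 3.33 in vehicle lungs. Empagliflozin lung 2 was the highest and vehicle lung 3 the lowest.

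Among the motor proteins of the cilium, Dnah11, an outer arm dynein heavy chain, measured 5.47, 7.19 and 4.94 FPKM in empagliflozin lungs against 3.38, 3.52 and 3.48 FPKM in vehicle lungs. Dnah5, another outer arm heavy chain, measured 3.67, 4.89 and 2.82 FPKM in empagliflozin lungs against 2.31, 2.15 and 1.38 FPKM in vehicle lungs. Neither overlapped, with differences of 0.61 ± 0.14 and 0.69 ± 0.21. Sec14l3, a lipid-binding protein abundant in airway epithelium, measured 636, 699 and 715 FPKM in empagliflozin lungs against 453, 514 and 501 FPKM in vehicle lungs, and Cfap43, a cilia and flagella protein, differed by 0.67 ± 0.17. Foxj1, the transcription factor that directs the ciliated fate, measured 71.5, 117 and 80.7 FPKM in empagliflozin lungs against 64.2, 80.3 and 37.9 FPKM in vehicle lungs and overlapped. The club cell secretory protein Scgb1a1 also overlapped, with 37144, 63673 and 30862 FPKM in empagliflozin lungs against 31396, 40501 and 20885 FPKM in vehicle lungs.

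Genes of cytotoxic lymphocytes were lower in empagliflozin lungs. Of 17 markers 15 were tested, all 15 were lower with a median of -0.63, and 8 (53.3%) were lower at an unadjusted p under 0.05, against 3.03% of all genes. For 6 (40%) the groups did not overlap, against 4.84% of all genes. Prf1, the pore-forming perforin, measured 14.6, 12.4 and 20.7 FPKM in empagliflozin lungs against 22.2, 36.2 and 28.3 FPKM in vehicle lungs. Gzmk, granzyme K, measured 9.33, 12.4 and 19.3 FPKM in empagliflozin lungs against 20.6, 27.2 and 26.6 FPKM in vehicle lungs. Their groups did not overlap, and vehicle lung 3 was not the lowest of its group. Gzmm and Klrb1a, a granzyme and a killer cell lectin-like receptor, differed by -0.62 and -0.63. Gzmb was high in 1 library, with 7.51, 7.32 and 12.9 FPKM in empagliflozin lungs against 11.5, 51.7 and 12.8 FPKM in vehicle lungs. The count was 4 without empagliflozin lung 1, 5 without empagliflozin lung 2 and 5 without vehicle lung 2, and the median ran from -0.84 to -0.40 over all alternatives.

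T cell, antigen presentation and monocyte genes were lower mainly against vehicle lungs 1 and 2. All 21 tested T cell markers were lower, with a median of -0.47, but 2 (9.52%, against 3.03% of all genes) were at an unadjusted p under 0.05, Cd8a and Cd8b, the chains of the CD8 coreceptor. Cd8b measured 2.14, 1.73 and 2.05 FPKM in empagliflozin lungs against 5.33, 5.74 and 2.64 FPKM in vehicle lungs. The count for T cells was 18 without vehicle lung 3, where 9.53% of all genes were lower, with a median of -0.86. It was 1 without empagliflozin lung 3 and 8 with the replicate block, where 4.97% of all genes were lower. All 10 tested MHC class II genes were lower with a median of -0.39 and 0 at an unadjusted p under 0.05, and 9 without vehicle lung 3, where 9.53% of all genes were lower. RT1-Da, a class II alpha chain, measured 610, 573 and 439 FPKM in empagliflozin lungs against 989, 1138 and 349 FPKM in vehicle lungs. Vehicle lung 3 was the lowest of all 6 libraries for this gene, so the groups overlapped.

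Of the 16 markers of interstitial macrophages and monocytes 15 were tested, 1 of them only through its vehicle mean, and all 15 were lower, with a median of -0.54. At an unadjusted p under 0.05 there were 4 (26.7%, against 3.03% of all genes), namely Fcgr3a, an Fc receptor, Cx3cr1, the fractalkine receptor, Plac8 and Aif1. There were 11 without vehicle lung 3, against 9.53% of all genes lower there, and there was 1 without empagliflozin lung 3 and 1 without vehicle lung 1. Plac8 measured 39.5, 38.8 and 35.1 FPKM in empagliflozin lungs against 81.2, 116 and 44.1 FPKM in vehicle lungs. The pan-macrophage receptor Csf1r differed by -0.01. Chemokines and their receptors were lower for 41 of 50 tested genes with a median of -0.29, and 1 of the 50 entered the test only through its vehicle mean. Of the 50, 5 (10%) were lower at an unadjusted p under 0.05, among them Ccl4 and Ccr7, against 3.03% of all genes. There were 17 lower ones without vehicle lung 3 and 14 with the replicate block, where 9.53% and 4.97% of all genes were lower. There were 3 without empagliflozin lung 1, 3 without empagliflozin lung 2 and 3 without vehicle lung 2. Ccl2, the main monocyte attractant, measured 5.59, 8.84 and 4.04 FPKM in empagliflozin lungs against 32.8, 55.5 and 4.21 FPKM in vehicle lungs, where vehicle lung 3 was at the empagliflozin level.

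Endothelial genes had the opposite sign with the same dependence on vehicle lung 3. All 16 tested general endothelial markers were higher, with a median of 0.46 and 0 at an unadjusted p under 0.05. When vehicle lung 3 was left out all 16 were, with a median of 0.81, where 9.47% of all genes were higher. Pecam1, the junctional CD31, measured 191, 173 and 178 FPKM in empagliflozin lungs against 94.1, 111 and 203 FPKM in vehicle lungs. Kdr, the receptor VEGFR2, measured 73.9, 53.8 and 57.8 FPKM in empagliflozin lungs against 30.6, 32.3 and 64.3 FPKM in vehicle lungs. For both genes vehicle lungs 1 and 2 lay under all empagliflozin lungs and vehicle lung 3 among or above them. The water channel Aqp1, abundant in lung endothelium, followed the same order, with 187, 169 and 158 FPKM in empagliflozin lungs against 60.3, 75.0 and 174 FPKM in vehicle lungs.

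**Figure D4:**
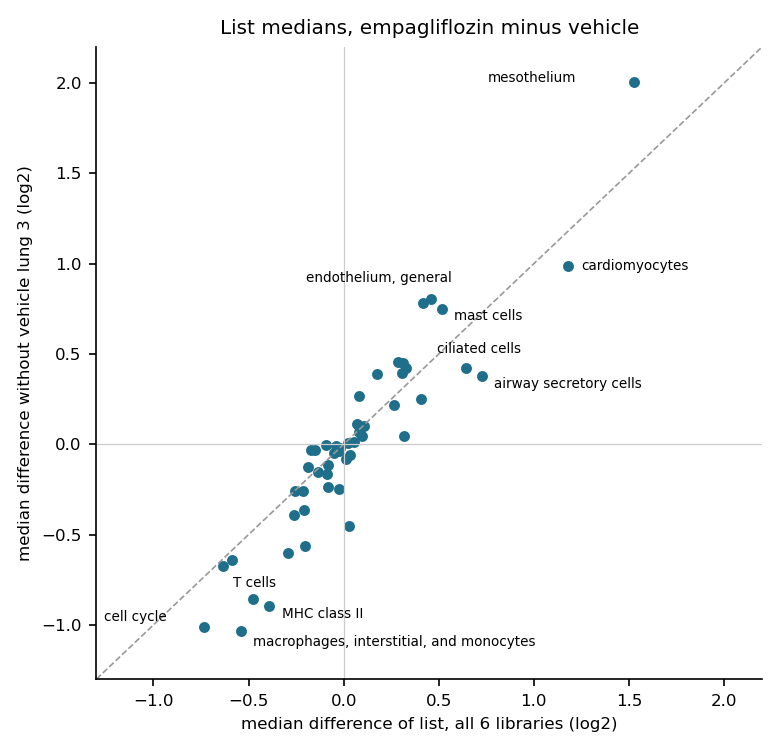
Median difference of each gene list without vehicle lung 3 (vertical axis) against the median with all 6 libraries (horizontal axis), both in log2(FPKM + 1), empagliflozin minus vehicle. Each point is a list of at least 4 tested members and the dashed line marks equal values. Mesothelium (1.53 and 2.01), general endothelium (0.46 and 0.81), MHC class II (-0.39 and -0.89) and interstitial macrophages (-0.54 and -1.04) lie farther from 0 without that library, while ciliated cells (0.64 and 0.42) lie nearer to it.

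Of 32 tested genes of pulmonary vascular tone, 23 were higher with a median of 0.29. At an unadjusted p under 0.05, 4 were higher (12.5%, against 4.59% of all genes) and 1 lower (3.12%, against 3.03%). Ptgis, prostacyclin synthase, measured 29.6, 49.1 and 32.5 FPKM in empagliflozin lungs against 16.2, 17.0 and 26.8 FPKM in vehicle lungs. The soluble guanylate cyclase subunits Gucy1a1 and Gucy1b1, receptors for nitric oxide, differed by 0.51 and 0.58, and Htr2b, a serotonin receptor, by -0.43. Without vehicle lung 3 there were 17 higher and 2 lower, where 9.47% of all genes were higher and 9.53% lower. There was 1 higher without empagliflozin lung 1, without empagliflozin lung 2 and without vehicle lung 1, and there were 2 without vehicle lung 2. Ace, the angiotensin-converting enzyme, measured 180, 94.6 and 110 FPKM in empagliflozin lungs against 64.5, 76.3 and 178 FPKM in vehicle lungs and overlapped. Of the 10 tested renin-angiotensin genes only Nr3c2, the mineralocorticoid receptor, was under an unadjusted p of 0.05 (10%, against 4.59% of all genes higher), with a difference of 0.44. It was not under that threshold without vehicle lung 1, where the list had 0, or without vehicle lung 2, where 2 others were lower. Without vehicle lung 3 the list had 2 higher and 1 lower, where 9.47% of all genes were higher and 9.53% lower.

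Alveolar epithelial lists had small medians. Of 15 tested type 1 cell markers 14 (93.3%, against 56.3% of all genes) were higher with a median of 0.17. That median ran from -0.03 to 0.39 over the alternatives. Of 15 tested type 2 cell markers 13 (86.7%, against 43.7%) were lower with a median of -0.26, which ran from -0.40 to -0.08. None of either list was at an unadjusted p under 0.05. When vehicle lung 3 was left out 3 type 1 markers were higher and 4 type 2 markers lower at that threshold, where 9.47% of all genes were higher and 9.53% lower. By contrast, 1 type 2 marker was higher without vehicle lung 1, 1 lower without vehicle lung 2, and 1 type 1 marker higher without empagliflozin lung 2. Among genes of ion and water transport, Slc26a4, the anion exchanger pendrin, measured 4.60, 4.02 and 3.09 FPKM in empagliflozin lungs against 19.6, 10.6 and 6.0 FPKM in vehicle lungs, without overlap (difference -1.29 ± 0.37). Aqp4, a water channel, and Ano1, a chloride channel, differed by 0.41 and 0.56. The epithelial sodium channel subunit Scnn1a measured 114, 84.5 and 169 FPKM in empagliflozin lungs against 80.5, 94.4 and 154 FPKM in vehicle lungs and overlapped.

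Haemoglobin and other red cell genes were lower, with 8 of 9 tested lower and a median of -0.59. At an unadjusted p under 0.05, 4 (44.4%) were lower, against 3.03% of all genes, and the groups did not overlap for 6 lower genes (66.7%), against 4.84%. Of the 9, 2 entered the test only through their vehicle mean. Hbb measured 737, 953 and 1116 FPKM in empagliflozin lungs against 1468, 1472 and 1663 FPKM in vehicle lungs. Alas2, the first enzyme of heme synthesis in red cells, measured 7.87, 11.6 and 12.7 FPKM in empagliflozin lungs against 17.3, 17.6 and 18.6 FPKM in vehicle lungs. Neither overlapped, with differences of -0.73 ± 0.18 and -0.71 ± 0.17 (adjusted p = 0.616 each). The haemoglobin chaperone Ahsp was higher, by 0.99. The count of lower genes was 2 without vehicle lung 2. How much blood each piece of lung held was not tested.

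Cardiomyocyte transcripts marked a single library. All 11 tested cardiomyocyte markers were higher with a median of 1.18 and 0 at an unadjusted p under 0.05, and 4 of them entered the test only through their empagliflozin mean. Myl7, the atrial myosin light chain, measured 57.8, 1.08 and 1.34 FPKM in empagliflozin lungs against 0.11, 6.02 and 0 FPKM in vehicle lungs. The secretory gland and large airway gene Scgb3a1 measured 1398, 32.8 and 311 FPKM in empagliflozin lungs against 310, 49.8 and 24.1 FPKM in vehicle lungs. Both were highest in empagliflozin lung 1, and without that library the cardiomyocyte median was 0.09.

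Other mast cell genes were less separated than Mcpt2. Of 22 markers 14 were tested, and 12 of these were higher with a median of 0.52. Mcpt2 was the higher one at an unadjusted p under 0.05 (7.14%, against 4.59% of all genes). Cd200r1l (difference -0.43) was the lower one (7.14%, against 3.03% of all genes). Of the 14, 2 entered the test only through their empagliflozin mean and 1 only through its vehicle mean. Cpa3, mast cell carboxypeptidase, measured 0.42, 2.10 and 2.17 FPKM in empagliflozin lungs against 0.69, 0.13 and 0.84 FPKM in vehicle lungs, and Kit, the stem cell factor receptor, 35.3, 26.4 and 26.8 FPKM in empagliflozin lungs against 16.8, 15.9 and 29.3 FPKM in vehicle lungs. Both genes overlapped. The count of higher genes was 5 without empagliflozin lung 1 and 5 without vehicle lung 3, 2 without vehicle lung 2 and 4 with the replicate block. Of all genes, 9.47% were higher without vehicle lung 3 and 7.51% with the replicate block.

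The target of the drug was barely present. Slc5a2 measured 0.18, 0.59 and 0.44 FPKM in empagliflozin lungs and 0.25, 0.19 and 0.23 FPKM in vehicle lungs, under the threshold of expression. The related cotransporter Slc5a1 measured 12.7, 7.69 and 12.0 FPKM in empagliflozin lungs against 7.52, 6.34 and 9.30 FPKM in vehicle lungs. Its groups overlapped, and the difference was 0.42 (95% interval -0.07 to 0.91, adjusted p = 0.639). Of the 10 tested glucose transporters Slc2a12 was the one at an unadjusted p under 0.05 (10%, against 4.59% of all genes higher). It measured 4.02, 4.22 and 3.83 FPKM in empagliflozin lungs against 2.60, 2.77 and 2.83 FPKM in vehicle lungs. The count was 3 without vehicle lung 3, 2 without empagliflozin lung 2, 2 without empagliflozin lung 3 and 2 with the replicate block. Of all genes, 9.47% were higher without vehicle lung 3 and 7.51% with the replicate block.

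Whether these differences stood apart from those of the other 6 tissues with both groups was tested as the lung difference minus the mean of the other differences, in a model of 42 libraries. At an adjusted p of 0.05 133 genes passed (0.939%), 73 higher (0.516%) and 60 lower (0.424%). At an unadjusted p under 0.05 there were 840 (3.02% of genes higher and 2.92% lower). The spread of a gene is pooled over all tissues in this model, and 120 of the 133 had a mean under 1 FPKM over the 36 other libraries. Among 10085 genes averaging 1 FPKM or more in each of the 7 tissues, a filter chosen after seeing the data, 0 passed by limma (lowest adjusted p = 0.128, 168 at an unadjusted p under 0.05), and 0 passed with a pseudocount of 0.1. The count was 60 without empagliflozin lung 2, 210 without empagliflozin lung 3, 289 without vehicle lung 3 and 242 with the replicate block. The lung difference of Mcpt2 was above that of the other tissues by 1.37 ± 0.09 (adjusted p = 4.78e-12), with a mean of 0.02 FPKM over the other libraries. The lung difference of Lcn2 was below that of the other tissues (-2.26 ± 0.44, adjusted p = 0.00435), with a mean of 9.46 FPKM there. Steap4 differed by 1.41 ± 0.39 (adjusted p = 0.0934), Cdk1 by -1.21 ± 0.35 (adjusted p = 0.108) and Msln by 1.42 ± 0.78 (adjusted p = 1), so that none of these 3 passed.

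Of the cell cycle list 16 of 65 passed with a lung difference below that of the other tissues, against 0.424% of all genes. Of the ciliated list 5 of 24 and of the mesothelial list 3 of 15 passed with one above it, against 0.516%. With 1 FPKM required in each of 7 tissues 0 genes passed. In kidney 38 of 43 tested cell cycle genes were higher with empagliflozin, with a median of 0.43, against 4 of 65 in lung. Of all genes tested, 8577 of 12848 were higher in kidney. In white fat 7 of 39 cell cycle genes were higher, with a median of -0.33, where 3958 of 12740 genes were higher. In aorta 12 of 39 were, with a median of -0.07, where 9025 of 13264 genes were higher. Their medians were 0.12 in brain, 0.05 in brown fat and 0.02 in V. In white fat all 15 tested mesothelial genes were higher too, with a median of 1.76, against 3958 of all 12740 genes tested there. There Msln measured 92.9, 61.8 and 134 FPKM with empagliflozin against 24.1, 37.9 and 0.51 FPKM with vehicle. Of 13 tested cytotoxic cell genes in white fat, 8 were lower at an unadjusted p under 0.05, where 767 of 12740 genes were. The median of that list was -0.71 in white fat, 0.54 in aorta and 0.43 in brown fat.

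**Figure D5:**
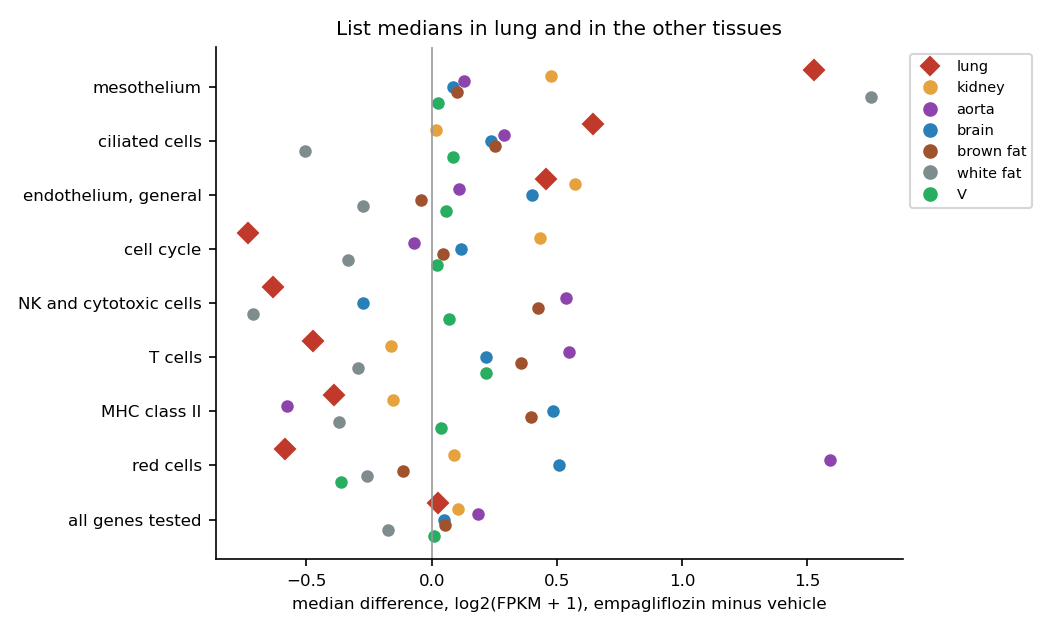
Median difference of 8 gene lists and of all genes tested, empagliflozin minus vehicle, on the log2(FPKM + 1) scale, in lung (red diamonds) and in the 6 other tissues with both groups (circles, V being a letter in the titles of a set of libraries). Only members tested in a tissue enter, and lists with fewer than 3 there are not drawn. Lung has the lowest median for cell cycle (-0.74) and the highest for ciliated cells (0.64), whereas white fat (1.76) lies beyond lung (1.53) for mesothelium.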

How the data were processed

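Per the labels' protocols, lung RNA was read from 1 end over 50 bases on the BGISEQ-500 platform. Rnor_6.0, Bowtie2 2.2.5 and HISAT2 2.0.4 are listed in the submitters' processing notes. The program that counted reads, and the role of each tool, are not stated in the sources used here. As for units, the deposited values are FPKM per gene and library, computed by the authors, with 1 table per group, and no scaling between the tables is stated. FPKM are relative to the whole library, so an abundant transcript moves all others, and no counting interval could be made because the depth is unknown. A 0 in such tables can be a failed estimate. Reads of near-identical or overlapping genes cannot be told apart.

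Both tables were joined on the gene identifier, and genes averaging 1 FPKM or more in either lung group were fitted as log2(FPKM + 1) by limma 3.58.1 with an intensity trend, in R 4.3.3. Tests were two-sided with Benjamini-Hochberg adjustment over all genes tested, at 0.05. The steps were tested on simulated data. An exact permutation test of 3 against 3 cannot go under p = 0.1 and was not used. For the contrast with other tissues, 14 groups entered 1 fit. Lists were described by counts and medians with no test of their own. The members and lists were chosen with earlier results of these data known. Named genes were the 10 with the lowest p in each direction that have a proper symbol, Steap4, Mcpt2, Lcn2, Msln and Cdk1, up to 4 members per list at an unadjusted p under 0.05, Slc5a1 and Slc5a2, lung markers, and up to 5 genes per direction for the contrast with other tissues. Further list members were named after their values were seen.

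Replicate numbers come from the titles. Deviations from the group means correlated by 0.227, 0.303 and 0.346 within same-numbered pairs, so the numbers were treated as pairs in an alternative fit, although the groups are different rats. Other alternatives were a pseudocount of 0.1, a filter of 5 FPKM or none, median-ratio scaling, quantile normalization, limma's robust option, all 7 tissues in 1 fit and leaving out each library. Leaving out both libraries numbered 3, the list counts under each alternative and the filter in each of 7 tissues were chosen after seeing the data. Tables and figures were made with Python 3.11.15, pandas 2.3.3 and matplotlib 3.10.9.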

Additional observations from a re-analysis of the deposited data

Results flagged for a closer look

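The differences listed here are those of named genes for which the difference in lung, minus the mean difference of the 6 other tissues, passed limma at an adjusted p of 0.05. All are on the log2(FPKM + 1) scale, empagliflozin minus vehicle. The lung difference was above that elsewhere for Mcpt2 (1.37), Clec2dl1, a C-type lectin-like gene (1.15), Muc16, a mucin of mesothelium (0.96), and Krt13 (0.86). It was also above for Cfap58 (0.77), Cfc1 (0.76), Dnah5 (0.75), Barhl1, a homeobox gene (0.63), and Dnah11 (0.56). The lung difference was below that elsewhere for Lcn2 (-2.26), Gzmbl2 (-2.15), Retnla (-1.90), Cdca3 (-1.58) and Fam111a (-1.17). It was also below for Cd300ld (-1.08), Gins1 (-0.97), Cd8b (-0.97), Iapp (-0.92) and Fgl1 (-0.60). Fam111a encodes a protease that acts at replication forks. It measured 1.12, 1.10 and 1.26 FPKM in empagliflozin lungs against 3.38, 5.02 and 2.44 FPKM in vehicle lungs, without overlap. Iapp, islet amyloid polypeptide, measured 2.47, 2.99 and 3.04 FPKM in empagliflozin lungs against 8.24, 6.70 and 4.49 FPKM in vehicle lungs, also without overlap. Most of these genes were near 0 outside lung, where little spread is possible, and with 1 FPKM required in each of 7 tissues 0 genes passed. In lung, Clec2dl1, Muc16, Krt13 and Barhl1 entered the test only through their empagliflozin mean and Gzmbl2 only through its vehicle mean.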

How the results depend on the processing

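With 3 libraries per group, a table for each group and unknown depth, no lung gene passed on all 6 libraries, and counts at the unadjusted threshold turned on single libraries. The count of genes that passed was 213 with all 7 tissues in 1 fit, where the spread of a gene is pooled over tissues. It ran from 0 to 51 when each library was left out. At the unadjusted threshold, 1079 genes became 1768 with the replicate block, 2554 without both libraries numbered 3, and 578 to 2698 when each library was left out. For lung against other tissues, 133 genes became 213 with quantile normalization, 0 with a pseudocount of 0.1, 24 with a filter of 5 FPKM, 242 with the replicate block, 0 with the filter in each of 7 tissues, and 60 to 289 when each library was left out. List counts at the unadjusted threshold moved for ciliated cells, cell cycle, cytotoxic cells and red cells. Ciliated cells had 23 with the replicate block, 18 with all 7 tissues in 1 fit, and 6 to 17 leaving out each library. Cell cycle had 21 of 33 tested with a filter of 5 FPKM, against 46 of 65 with the main filter. Leaving out each library gave 21 to 60 for cell cycle and 4 to 10 for cytotoxic cells. Red cells had 2 with all 7 tissues in 1 fit, and 2 to 5 leaving out each library. The red cell median was -0.35 with no filter. The replicate block changed no gene's call in lung. Of the values of named genes under alternatives, 1463 kept their side of the adjusted threshold, 40 came to pass it and 0 changed sign. The causes were not tested.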

Other observations

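Immediate early genes, the fast transcription factors that also respond to handling of tissue, were higher for 23 of 25 tested members in empagliflozin lungs, with a median difference of 0.31. Of the 25, 2 entered the test only through their vehicle mean. At an unadjusted p under 0.05, 2 members (8%) were higher, against 4.59% of all genes. That count was 10 without empagliflozin lung 1, 8 without vehicle lung 3 and 9 with the replicate block. It was 1 without vehicle lung 1, and 0 without empagliflozin lung 3 or without vehicle lung 2. In either direction, 892 genes were under that threshold without empagliflozin lung 1 and 1167 without empagliflozin lung 3. There were 676 without vehicle lung 1 and 705 without vehicle lung 2. Of all genes, 9.47% were higher without vehicle lung 3 and 7.51% with the replicate block. Egr1 measured 43.1, 40.3 and 84.2 FPKM in empagliflozin lungs against 21.6, 16.5 and 40.6 FPKM in vehicle lungs. The libraries numbered 3 were the highest of both groups, and the groups overlapped. Cholesterol synthesis genes were lower for 21 of 22 tested members with a median of -0.26 and 0 lower at an unadjusted p under 0.05 by limma. There were 2 without vehicle lung 3, where 9.53% of all genes were lower, 2 without empagliflozin lung 3 and 1 without vehicle lung 2. Cyp1a1, a target of the aryl hydrocarbon receptor, measured 1.39, 0.79 and 1.66 FPKM in empagliflozin lungs against 0.04, 0.36 and 0.25 FPKM in vehicle lungs, without overlap (difference 0.90 ± 0.21, limma adjusted p = 0.616), and entered the test only through its empagliflozin mean.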
